A study of Mus musculus with 3 samples.

Results

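The apolipoprotein genes are 10 genes (Apoa1, Apoa2, Apoa4, Apoa5, Apob, Apoc1, Apoc2, Apoc3, Apoe and Apom) chosen by name, by a rule that uses no measured value. Their probes were found through the array's transcript accessions, which gave 13 probes for 9 of the 10 genes, out of 41112 probes with a value and 16998 named genes. No probe was matched to Apoc2, a cofactor of lipoprotein lipase, and that gene was not analysed here. RNA came from the primordia of the esophagus, the stomach and the intestine of ICR mouse embryos at E11.5, with no treatment named in the labels. Each organ was measured on 1 array, so there was no replicate and no test, and precision is limited by having so few arrays. The labels do not say how many embryos went into a sample, and their extraction text names the stomach for all 3 samples, so the organ was taken from title and tissue.

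Apolipoproteins are the protein part of lipoproteins, the particles that carry lipids in plasma. Apob forms the scaffold of the large particles that liver, intestine and, in the embryo, the yolk sac endoderm secrete, and Apoa1 and Apoa2 are the main proteins of high density lipoprotein. The smaller exchangeable proteins move between particles, where they steer lipases and receptors. Apoe is the ligand through which remnant particles bind receptors, and it is made by many cell types, macrophages and glia among them.

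Values are the log2 of the background-corrected signal minus the log2 of the array's 75th percentile, a signal of 393 on the esophagus array, 334 on the stomach array and 1023 on the intestine array. A probe was taken as measured on an array when most of its spots were well above background. The lowest such value on that scale lay at −5.81 for esophagus, −5.84 for stomach and −6.97 for intestine, so a dim gene can be measured further down on the intestine array. Where only 1 of 2 arrays measured a probe, the difference is a bound, written as at least N-fold and computed from whichever is higher on the dim array, its lowest measured value or the probe's own. As a yardstick, different probes of 1 gene gave differences with a median SD, in log2 units, of 0.25 between stomach and esophagus, 0.46 between intestine and esophagus and 0.31 between intestine and stomach. This yardstick comes from probes measured on both arrays and holds no spread between samples of an organ, so a difference above it is not shown to recur. Signals are not compared between genes, since each probe has its own efficiency.

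Of the 9 genes with a probe, 5 (Apoa1, Apoa2, Apoc1, Apoe and Apom) were well above background in all 3 organs. Apob and Apoa4 were not measured in stomach, Apoa5 was not measured in esophagus, and Apoc3 was measured in no organ. Apoa1, Apoa2, Apob and Apom were 8.05-fold to 12.7-fold higher in intestine than in esophagus, and 8.18-fold to at least 22.4-fold above their stomach values. Apoe and Apoc1 lay within 2-fold in every comparison. Apoa4 and Apoa5 had low signals, and several of their differences are bounds.

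**Figure D1:**
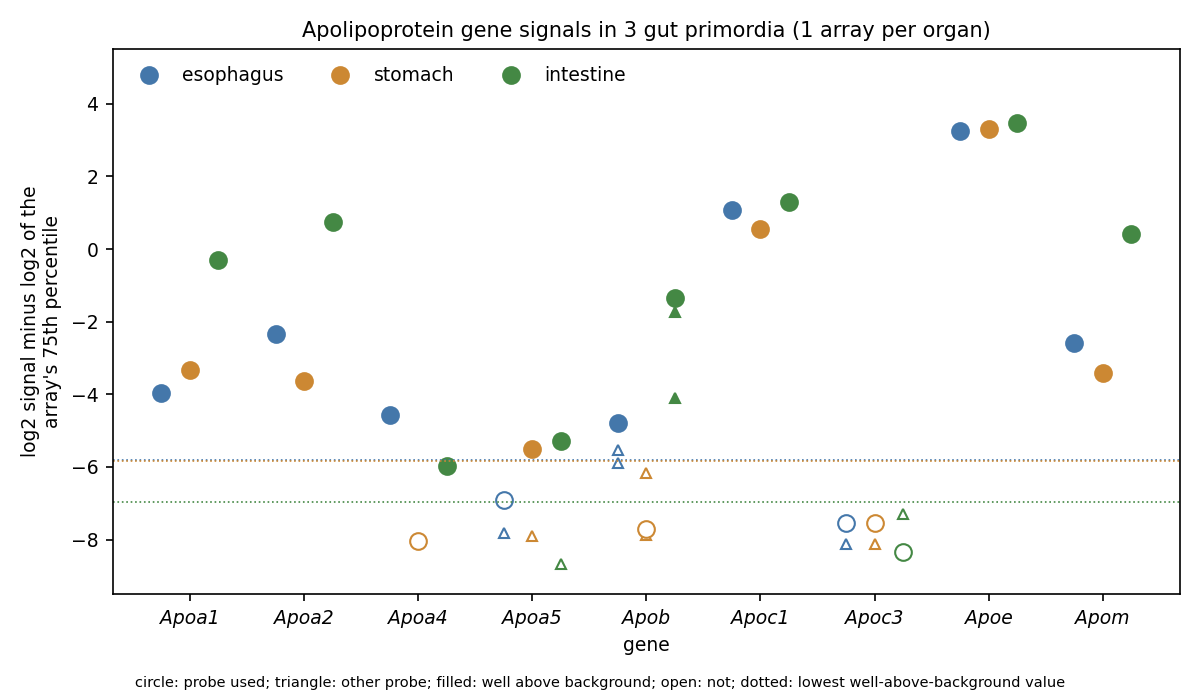
Signal of each apolipoprotein gene in esophagus, stomach and intestine (y axis: log2 signal minus log2 of the array's 75th percentile; circles: the probe used, triangles: other probes of the gene, filled: well above background, open: not, dotted lines: lowest value well above background in each organ). Apoa1, Apoa2, Apob and Apom stand highest in intestine, while the 3 values of Apoe lie between 3.25 and 3.46.

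Apoa1 and Apoa2 encode the structural proteins of high density lipoprotein. Apoa1 was printed 10 times on each array, and its spots read 22.4 to 29.6 in esophagus (median 24.2), 29.8 to 36.0 in stomach (median 32.9) and 768 to 869 in intestine (median 828). The spots of the 3 arrays did not overlap, before or after scaling. On the scaled axis Apoa1 stood at −3.98 ± 0.13 in esophagus, −3.34 ± 0.08 in stomach and −0.31 ± 0.05 in intestine (SD, n = 10 spots of 1 array each), which covers error within an array only. The intestine value was 12.7-fold above the esophagus value (3.67 log2 units) and 8.18-fold above the stomach value (3.03), and both differences exceed the yardstick between probes. Stomach was above esophagus by 0.64, which is also more than the yardstick. Apoa2, with 1 spot an array, read 78.3 in esophagus, 26.9 in stomach and 1716 in intestine. Its intestine signal was 8.42-fold that of esophagus (3.07) and 20.8-fold that of stomach (4.38) after scaling. Unlike Apoa1, Apoa2 was lower in stomach than in esophagus, by 1.31 log2 units, and these opposite signs held in all 9 processings tried for each gene.

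**Figure D2:**
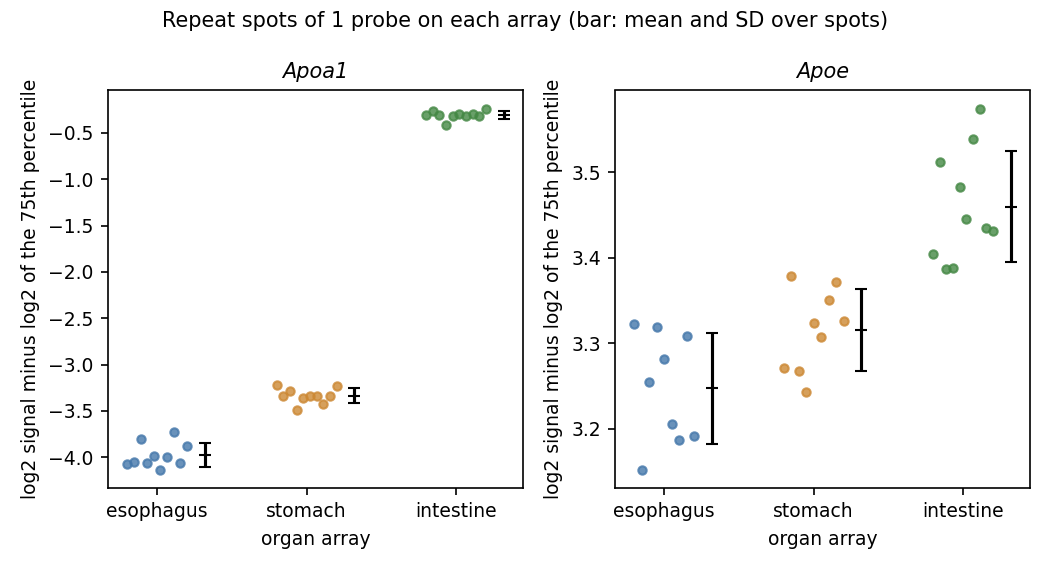
Every repeat spot of the Apoa1 probe (left) and the Apoe probe (right) on the 3 arrays, in log2 signal minus log2 of the array's 75th percentile, with the mean and SD over spots of 1 array. The y axes differ: the Apoa1 means run from −3.98 to −0.31, whereas those of Apoe run from 3.25 to 3.46.

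Apob, the scaffold of the lipid-rich particles, was read by 3 probes of 1 spot each. The probe used (A_52_P441070) gave 14.2 in esophagus, 1.58 in stomach, where it was not well above background, and 402 in intestine. After scaling, the intestine signal was 10.9-fold that of esophagus and at least 22.4-fold that of stomach. The probe A_51_P470542 gave at least 13.9-fold and at least 17.2-fold for the same comparisons. The third probe, A_51_P380650, was dimmer, with 59.5 in intestine, and gave at least 3.25-fold and at least 3.32-fold. All 3 probes therefore stood highest in intestine, while the bounds from the dimmest probe were the smallest. For stomach against esophagus, the probe used gave at least 2.06-fold lower in stomach, and the others were measured in neither organ.

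Apom, a lipocalin carried on high density lipoprotein that binds sphingosine 1-phosphate, read 65.2 in esophagus, 31.3 in stomach and 1364 in intestine. After scaling, intestine was 8.05-fold above esophagus (3.01 log2 units) and 14.2-fold above stomach (3.83). Like Apoa2, and as Apob did by a bound, Apom stood lower in stomach than in esophagus, by 0.82 log2 units. The order intestine, esophagus, stomach thus held for Apoa2, Apom and the probe used for Apob, with every step above the yardstick, whereas Apoa1 had the order intestine, stomach, esophagus.

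Apoe and Apoc1 are neighbours in RefSeq's gene order and behaved unlike those genes. The spots of Apoe that were not outliers read 3495 to 3934 in esophagus (median 3753, 9 spots), 3164 to 3477 in stomach (median 3346, 9 spots) and 10700 to 12190 in intestine (median 11100, 10 spots). Scaled, Apoe stood at 3.25 ± 0.06, 3.32 ± 0.05 and 3.46 ± 0.06 (SD over those spots). The scaled spots of esophagus and stomach overlapped, and those of intestine lay above both. Stomach exceeded esophagus by 0.07, and intestine exceeded esophagus by 0.21 and stomach by 0.14, all below the yardstick between probes. Apoc1, an exchangeable protein that inhibits lipid transfer and lipase action, read 820 in esophagus, 491 in stomach and 2530 in intestine. It stood at 1.06, 0.56 and 1.31. Intestine and esophagus were not told apart (0.25), while stomach was lower than esophagus by 0.50 and lower than intestine by 0.75. Scaled on the spike-in controls in place of the 75th percentile, the median of all genes itself moved up to 1.01 for intestine against esophagus, and Apoe and Apoc1 stood at 1.12 and 1.15. Their closeness between organs is therefore relative to the bulk of genes on each array.

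Apoa1, Apoc3, Apoa4 and Apoa5 lie in that order, next to each other, in RefSeq's gene order on chromosome 9. Only Apoa1 of these was measured in all 3 organs, so they can be set side by side in single comparisons only. Between intestine and esophagus, Apoa1 was 3.67 log2 units higher in intestine and Apoa4 was 1.41 lower. Between intestine and stomach, Apoa1 was 3.03 higher in intestine and Apoa5 0.22 higher. The Apoa4 and Apoa5 values there rest on dim single spots. Apoc3, which slows the clearance of triglyceride-rich particles, had 2 probes that read 1.19 to 6.55 over the 3 arrays and were nowhere well above background. Apoa4, a protein of intestinal particles later in life, read 16.7 in esophagus, 1.28 in stomach and 16.3 in intestine. After scaling it was lower in intestine than in esophagus by 1.41, and at least 2.42-fold lower in stomach than in esophagus. The first difference depends on the scaling. It was −1.26 after normexp correction, but −0.91 under quantile normalization, −0.92 under median centring and −0.51 on the spike-in controls, short of 2-fold. The intestine value of Apoa4, −5.97, lay below the lowest value measurable in stomach, so no difference can be given between those organs. Apoa5, a regulator of plasma triglyceride, read 3.28 in esophagus, 7.34 in stomach and 26.2 in intestine by 1 of its probes, and the second probe was well above background in no organ. After scaling, intestine was at least 1.43-fold above esophagus and 1.17-fold above stomach, and the latter difference turned to −1.10 after normexp background correction. Among probes printed 10 times with signals under 50, the median SD over spots was 0.26 to 0.30 log2 units. That spread bears on the single spots of Apoa4 and Apoa5 and on the esophagus signal of Apob. It bears equally on the stomach signals of Apoa2 (26.9) and Apom (31.3), each read by 1 spot.

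In each comparison 8 of the 10 genes were measured on 1 array or both. Between intestine and stomach 7 of those 8 had a value, since none can be given for Apoa4, and 564 of the genes counted there likewise had none. Between intestine and esophagus, 4 of the 8 passed 4-fold with intestine higher and 0 lower by that much, where 1.75% of 14462 genes were higher and 3.7% lower. The median difference was 1.76 log2 units, against 0.13 for all genes with a value. Between intestine and stomach, 4 of the 7 with a value passed it with intestine higher and 0 with it lower, where 1.38% of 14384 genes were higher and 1.24% lower. The median over the 7 genes with a value was 3.03, against −0.02 for all genes. Between stomach and esophagus, 0 of the 8 had a value or bound past it, where 0.684% of 13740 genes were higher and 1.58% lower in stomach. The differences of Apoa4, Apoa5 and Apob there are bounds, so theirs may be larger. At 2-fold, Apoa2, Apoa4 and Apob (3 of 8) were lower in stomach, where 5.71% of genes were, and Apoa4 (1 of 8) was lower in intestine than in esophagus, where 11.5% of genes were. The median was −0.66, against 0.15 for all genes. A gene enters a comparison once 1 array measures it, so these medians hold some genes that had to differ, and they are descriptions of the measured genes only.

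Over all genes, 253 passed 4-fold with intestine above esophagus and 535 with intestine below. That split was 367 and 372 under quantile normalization, 453 and 297 under median centring, and 990 and 199 on the spike-in controls. Against stomach, 198 were higher and 178 lower, with 228 and 131, 255 and 116, and 552 and 68 under those scalings. For stomach against esophagus the 94 higher and 217 lower became 125 and 179 under median centring. Apoa1, Apoa2 and Apom passed 4-fold above esophagus in all 9 processings, and Apob in 8 of 9, with 1.38 log2 units after normexp correction. Against stomach, normexp correction brought Apoa1 to 1.83 and Apob to 1.54, and left 2 genes, Apoa2 and Apom, past 4-fold. After that correction 50 genes (0.348%) were higher and 61 lower in intestine than stomach over all genes, and 93 (0.643%) were higher and 215 lower than in esophagus.

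**Figure D3:**
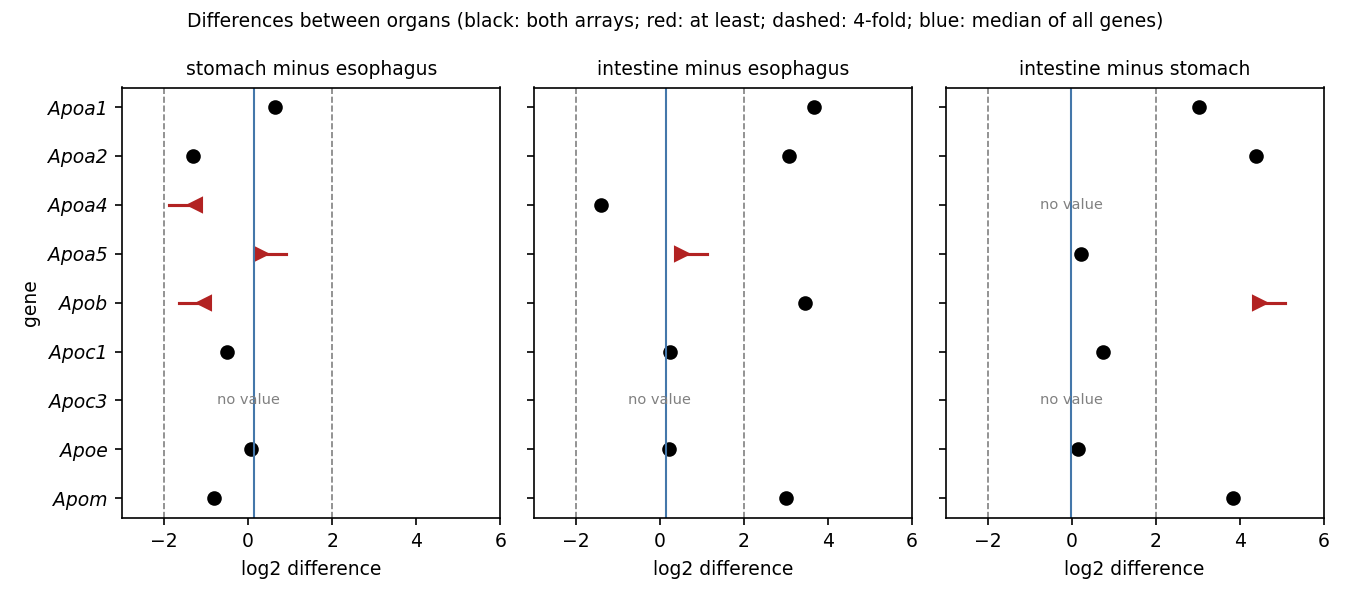
Log2 difference of each apolipoprotein gene for stomach minus esophagus, intestine minus esophagus and intestine minus stomach (black: measured on both arrays, red arrows: at least this difference, dashed lines: 4-fold, blue line: median of all genes with a value). Apoa1, Apoa2, Apob and Apom lie right of the 4-fold line in both intestine comparisons, and no value or bound passes it for stomach minus esophagus.

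Markers of other cells moved with these genes. The medians of 13 hepatocyte markers with a probe were 3.005 log2 units for intestine over esophagus and 3.33 for intestine over stomach. Of these markers, 12 passed 4-fold with intestine higher in each comparison, against 1.75% and 1.38% of all genes. The exception was Serpinc1, the antithrombin gene, whose probe used gave −2.01 and −1.78 while its other probe gave 3.21 and 4.56. The summed signal of the hepatocyte list was 15.6 times the 75th percentile in esophagus, 14.0 times in stomach and 120 times in intestine. Such a sum follows its brightest probes. In intestine Afp (48940), Ambp (29010) and Rbp4 (26260) made most of 123000, and in stomach Ambp gave 2252 of 4687. Alb and Afp, secreted products of fetal hepatocytes though not shown here to come from them, were well above background on every array. Ttr and Fga were so in intestine only. For stomach against esophagus the list had a median of −1.13, with 6 of 11 members at least 2-fold lower, where 5.71% of all genes were. Ambp went the other way, 2.20 log2 units higher in stomach. These stand next to −1.31 for Apoa2, −0.82 for Apom and 0.64 for Apoa1. In whole organs, fewer cells of a type and less RNA per cell cannot be told apart, and the part of hepatocytes in the apolipoprotein signal was not tested.

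Of 10 intestinal epithelium markers, 7 also passed 4-fold in intestine over stomach, where 1.38% of all genes did. The summed signal of that list was 1.21, 1.74 and 16.0 times the 75th percentile in esophagus, stomach and intestine. Cdx2, the regulator of intestinal identity, was not measured in esophagus and was 6.22 log2 units higher in intestine than in stomach. Its relative Cdx1 was measured in stomach only, by a signal of 7.03 near the lowest measured there, 5.85. For stomach against esophagus the median of 1.15 is itself a bound, since 5 of 9 members were measured in stomach and not in esophagus and had to be positive. Of the other 4, Vil1 (2.73) and Fabp2 (1.62, and 0.22 by its other probe) were higher in stomach, Cldn6 differed by 0.39 and Fabp1 by −1.68. Among markers of visceral yolk sac endoderm, another source of Apob, Cubn (3.03) and Amn (at least 2.87) passed 4-fold in intestine over stomach, and the other 5 of 7 were within 2-fold by the probe used, with Dab2's other probe at −1.30. The part of either cell type was not tested.

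Macrophage markers, listed because macrophages make Apoe, had 12 of 12 members well above background on every array and 0 at least 4-fold apart in any comparison. Their summed signal was 7.38, 9.14 and 9.63 times the 75th percentile in esophagus, stomach and intestine. Erythroid markers likewise had 0 of 9 members at least 4-fold apart by the probe used, while the other probe of Epb42 gave 2.32 between intestine and esophagus. In the neural crest and glia list only Erbb3 was at least 4-fold apart, lower in intestine than in esophagus (−2.97) and stomach (−2.28). Endothelium markers had 0 of 8 at least 4-fold apart. For all genes the share past 4-fold was 0.684% to 3.7% by comparison and direction, so counts of 0 in such short lists say little. The pancreas bud list went both ways, with Cpa1 (4.48) higher and Nkx6-1 (−4.34) lower in intestine than in esophagus.

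**Figure D4:**
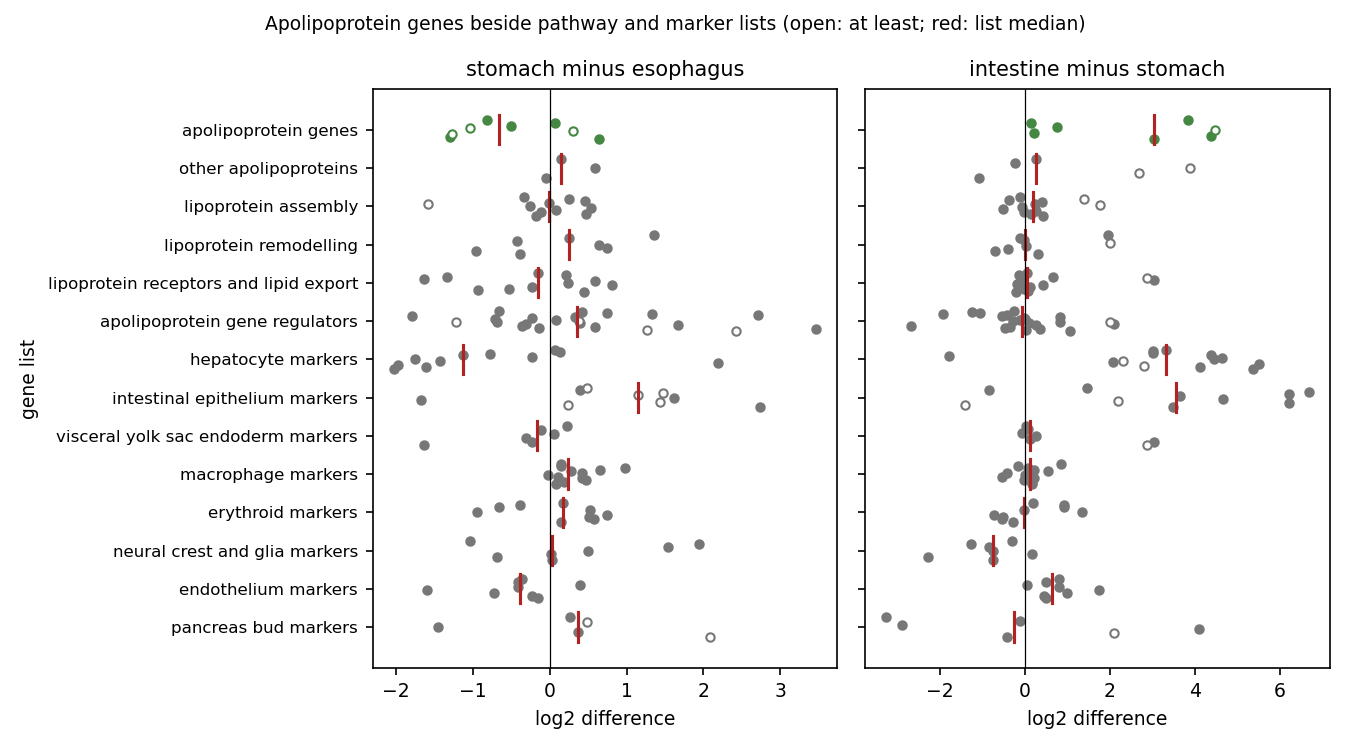
Log2 difference of each gene of 14 lists for stomach minus esophagus (left) and intestine minus stomach (right), with apolipoprotein genes in green, other lists in grey, open points for differences that are at least that large, and a red bar at the list median. The medians of hepatocyte and intestinal epithelium markers are 3.33 and 3.56 on the right, beside 3.03 for the apolipoprotein genes, and −1.13 and 1.15 on the left, beside −0.66.

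Other apolipoproteins were set beside these. Of 6 such genes, Apoh, a phospholipid-binding plasma protein, stood at least 3.86 log2 units above esophagus and at least 3.89 above stomach in intestine, and Apof at least 2.36 and 2.70. Apod, a lipocalin made by glia and fibroblasts, was lower in intestine by 1.13 and 1.09. Clu, a secreted chaperone, differed by 0.41 and 0.27.

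Among 12 genes that load and export Apob, 0 had a value or bound past 4-fold in any comparison, a count to be read beside the low shares of all genes given above. Mttp, which transfers lipid to nascent Apob, stood at −3.81 in esophagus, −3.99 in stomach and −3.55 in intestine. A1cf, a cofactor of Apob mRNA editing, was not measured in stomach and was at least 1.77 log2 units higher in intestine than there. The editing enzyme Apobec1 stood within 0.32 log2 units in every comparison by the probe used, but a second probe gave −1.79 between intestine and esophagus. Soat2, which esterifies cholesterol for export, was measured in intestine only, at least 1.36 and 1.39 log2 units above esophagus and stomach.

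Among genes that remodel lipoproteins, Pltp, which transfers phospholipids, was lower in intestine than in esophagus by 1.66, and Lpl, the lipase of peripheral tissues, differed by 0.34 between intestine and esophagus and −0.41 between intestine and stomach. Lipg and Pon1 were measured in no organ. Of 12 receptor and lipid export genes, Cubn and Amn, partners in the uptake receptor cubam, were those past 4-fold in intestine over stomach. Of all genes 1.38% were. Lrp1 and Scarb1 stood within 0.59 log2 units in every comparison, and Abca1, which loads lipid onto Apoa1, was lower in stomach than in esophagus by 1.34.

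Among regulators of hepatic and intestinal genes, some were already higher in stomach than in esophagus. Onecut1 stood 2.71 higher and Hnf4a at least 2.43 higher, though the other measured probe of Hnf4a gave at least 1.56. Between intestine and stomach Onecut1 differed by −0.43 and Hnf4a by 1.07 (−0.44 by its other probe). Nr5a2, a nuclear receptor of liver and gut, was 2.10 higher in intestine than in stomach, and Foxa2, a forkhead factor of endoderm, differed by −2.68. Against esophagus, Foxa2 (−3.04) and Prox1 (−2.35) were lower in intestine, with −1.14 from the other probe of Prox1.

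The 5 genes outside the list whose 3 values, centred on their mean, lay nearest to the median profile of the 5 apolipoprotein genes measured in all organs were Zpbp2, Cstdc4, Proc, Paqr9 and F12. They were taken from 12859 genes by Euclidean distance over 3 arrays, with distances from 0.17 to 0.26 log2 units, and a profile of 3 values is matched easily. The median profile itself lay at −0.87 for esophagus, −1.08 for stomach and 1.95 for intestine. Proc and F12 encode the plasma proteins protein C and coagulation factor XII.

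The promoters of the genes that stood highest in intestine, Apoa1, Apoa2, Apob and Apom, are shown with that of Apoe, which differed least between organs, because they are the genes the comparison turns on. They come from RefSeq on build GRCm38.p6, each from 250 bases before to 50 after an annotated start, and 8 of the 10 genes had an entry, Apoc2 among them. The motifs searched on both strands were TATAAA, CAAAGTCCA (bound by HNF4), TTGCNNAA (bound by C/EBP) and TGTTTAC (bound by forkhead factors), and every match is in capitals. The regions are chr9:46228380-46228679 on the plus strand for Apoa1, chr1:171221314-171221613 (plus) for the upstream of 2 starts of Apoa2, chr12:7977427-7977726 (plus) for Apob, chr17:35131752-35132051 (minus) for Apom and chr7:19699139-19699438 (minus) for the upstream of 3 starts of Apoe.
Apoa1: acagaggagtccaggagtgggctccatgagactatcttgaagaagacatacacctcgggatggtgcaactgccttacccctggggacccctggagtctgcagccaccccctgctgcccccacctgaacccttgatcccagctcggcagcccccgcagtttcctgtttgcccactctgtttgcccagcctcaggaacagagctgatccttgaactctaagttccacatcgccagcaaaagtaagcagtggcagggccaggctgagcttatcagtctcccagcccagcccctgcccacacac
Apoa2: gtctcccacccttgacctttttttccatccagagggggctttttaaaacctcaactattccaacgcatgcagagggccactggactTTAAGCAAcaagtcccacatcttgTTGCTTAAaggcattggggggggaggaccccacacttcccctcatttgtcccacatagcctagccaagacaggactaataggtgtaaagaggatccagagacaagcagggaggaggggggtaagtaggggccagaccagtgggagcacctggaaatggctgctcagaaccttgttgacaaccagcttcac
Apob: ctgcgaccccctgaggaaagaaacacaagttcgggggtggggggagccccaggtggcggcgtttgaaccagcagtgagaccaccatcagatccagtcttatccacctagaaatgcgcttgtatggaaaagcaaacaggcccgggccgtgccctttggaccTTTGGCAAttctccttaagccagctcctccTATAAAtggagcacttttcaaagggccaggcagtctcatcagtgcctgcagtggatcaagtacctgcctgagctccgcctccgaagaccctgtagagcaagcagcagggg
Apom: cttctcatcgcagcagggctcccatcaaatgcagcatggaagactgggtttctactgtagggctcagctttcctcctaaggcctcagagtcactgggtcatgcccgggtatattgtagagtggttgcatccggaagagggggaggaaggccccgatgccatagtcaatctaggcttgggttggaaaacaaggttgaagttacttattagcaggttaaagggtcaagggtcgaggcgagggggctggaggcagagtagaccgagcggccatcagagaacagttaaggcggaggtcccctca
Apoe: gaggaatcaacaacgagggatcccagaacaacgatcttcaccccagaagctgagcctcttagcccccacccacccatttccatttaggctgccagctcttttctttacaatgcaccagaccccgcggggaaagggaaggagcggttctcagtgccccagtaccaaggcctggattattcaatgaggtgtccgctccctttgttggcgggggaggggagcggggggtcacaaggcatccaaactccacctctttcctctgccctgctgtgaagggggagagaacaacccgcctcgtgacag
Apob held TATAAA from base −60 and, on the other strand, TTGCNNAA from base −90, counted from the start. The Apoa2 stretch held TTGCNNAA on both strands, from bases −164 and −140, and the downstream Apoa2 start held TATAAA and TGTTTAC. The stretches of Apoa1, Apom and Apoe shown held none of the 4 motifs. The other 2 starts of Apoe held TATAAA on both strands at one and TGTTTAC at the other. Of the 8 genes with an entry, 4 held TATAAA at 1 or more starts and 2 held TTGCNNAA, where 13.6% and 10.8% of 32851 RefSeq promoters of that length did. TGTTTAC was in 2 of the 8 genes (3.65% of promoters) and CAAAGTCCA in 0 (0.475%). A gene with several starts has more chances to hold a motif than 1 promoter, and a match is a description of letters in this window.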

How the data were processed

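The authors deposited 1-colour Agilent array files and, per the file headers, read them with Feature Extraction 10.5.1.1. Their processed signal is an intensity after background subtraction and detrending, per the file headers, and is not scaled between arrays. The authors also deposited a table of log2 values. Set against the scanner values, 99.8% to 99.9% of its probes lay within 0.01 log2 units of them after removal of 1 constant per array, so its scale and direction are those of the log2 signal, and its medians were −2.97, −3.17 and −3.47 for esophagus, stomach and intestine. How its centring was set is not given in the sources used here. All 3 arrays lay on 1 slide, so position and organ cannot be told apart.

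Control spots and outlier spots (70 to 111 per array) were left out, and no spot was saturated (0 on every array). Between 67.9% and 74.0% of spots were well above background. Spots of a probe were averaged as log2 intensity minus the 75th percentile. Accessions were matched, without versions, to RefSeq transcripts of GRCm38.p6 in Python 3.11.15: 24342 probes had 1 symbol and 16770 none. The probe with the highest mean stood for a gene. Genes counted as apart differed at least 4-fold. With 1 array per organ no test was run. Normexp correction used limma 3.58.1 with an offset of 50. The steps were tested on simulated data. Named genes are all listed apolipoprotein genes and members of 13 pathway and marker lists (132 of 136 genes had a probe), taken where at least 4-fold apart or needed to describe a list, plus the 5 nearest profiles. Some members of the pathway lists and 1 promoter motif are not reported here. The genes and lists were chosen with earlier results of these data known.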

Additional observations from a re-analysis of the deposited data

How the results depend on the processing

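The differences of the apolipoprotein genes were recomputed under 8 other processings, of which spike-in scaling was added after seeing the data, and were also counted at 2-fold. Of 178 recomputed differences of single genes, 132 moved by less than the spread between probes of 1 gene and 46 moved by more. Of those at least 4-fold apart, 0 changed sign. Of the 132, 23 came from the deposited table, 21 from the mean of probes, 18 from requiring both arrays and 18 from dropping the filter on dim probes. Those processings leave most values as they were by construction. Normexp correction moved 14 and kept 8, spike-in scaling 15 and 8, median centring 8 and 15, and quantile normalization 2 and 21. Spike-in scaling and median centring shift all genes of a comparison by 1 constant, so their counts follow from its size beside the spread between probes. Normexp correction brought the median to −0.18 for stomach against esophagus and 1.54 for intestine against stomach, and left 2 genes past 4-fold in intestine over stomach, where 0.348% of all genes were. Without the filter on dim probes 2 of 9 genes (Apoa4 and Apob) were at least 4-fold lower in stomach than in esophagus, where 2.06% of all genes were, and the median for intestine against stomach was 2.06. Counting at 2-fold gave 3 of 8 genes lower in stomach (5.71% of all genes) and 1 of 8 lower in intestine (11.5%) than in esophagus. For intestine against esophagus the median was 2.26 under median centring, 3.01 where both arrays had to measure a gene and 2.67 on the spike-ins. For intestine against stomach it was 1.89 under quantile normalization, 2.18 under median centring and 1.89 where both arrays had to measure a gene. The filters let 5 to 9 genes enter. Between intestine and stomach the main median, over 7 genes, was Apoa1's own value of 3.03, so it depends on which genes have a value. Apoa1 itself stood at 3.06 under quantile normalization and 3.33 under median centring, and Apoc1 at 0.73 and 1.04, against 0.75 at first. Normexp correction adds an offset of 50 to each signal, so differences of probes dimmer than that change by construction. How much of its shifts this makes up, and the cause of the other shifts, was not tested. Signal over background limits Apoa4, Apoa5, Apoc3 and, outside intestine, Apob. In stomach, Apoa2 and Apom were each read by 1 spot with a signal under 50. No paired analysis was possible because each organ has 1 array.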
